A study of Mus musculus with 6 samples.

Results

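Genes of the axon guidance ligands and receptors were examined in sorted mouse Leydig cells, the androgen-producing cells of the testis. They were taken by symbol from the table deposited for the study: semaphorins (Sema), plexins (Plxn), neuropilins (Nrp1, Nrp2), Slit, Robo, netrins (Ntn, Ntng), Unc5, Dcc, Neo1, repulsive guidance molecules (Rgma, Rgmb), ephrins (Efna, Efnb), Eph receptors (Epha, Ephb) and the leucine-rich repeat proteins Lrrn, Lrrtm, Slitrk and Flrt, with Robo2 left out. In all, 63 of the 10580 rows of the table matched. The GENCODE annotation holds 93 protein-coding symbols of these names, Robo2 aside, so 30 of them, among them Dcc, Ntn1, Slit1, Slit3, Efnb2, Plxnb2, Rgma and Rgmb, were not analysed here. Only genes that differed between the stages are listed, and the share of all annotated genes that are listed was not computed. The count of 63 therefore describes the list and is not a result about guidance genes. The choice by name also took in Unc5cl and Lrrn4cl, which resemble guidance genes in name or sequence and are not established guidance cues or receptors. Unc50, which is among the 30, matches by name only and is not an Unc5 receptor.

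RNA was sequenced from 3 libraries of fetal Leydig cells (FLCs, embryonic day 18.5) and 3 libraries of adult Leydig cells (ALCs, postnatal day 100). All animals were XY and carried 1 transgene in common, Nr5a1-GFP (genotype Nr5a1 Tg in the labels), in which the regulatory sequences of Nr5a1, a transcription factor of steroidogenic cells, drive green fluorescent protein. The transgene marks Sertoli cells too, so the most strongly fluorescent live single cells were sorted. Embryos had outbred CD-1 mothers and heterozygous transgenic fathers, adults were heterozygous, and fetal cells from several sorting experiments were pooled to reach enough RNA. The values used here are the authors' means over all 6 libraries of read counts divided by size factors. A mean of this kind has no error and no value per library, and by itself does not tell how much came from FLCs and how much from ALCs. The table lists only genes that differed between the stages in the authors' comparison, so 2 genes with like means may differ at each stage, and every ratio of genes given here is a ratio of pooled means. The authors' own comparison of the stages was not used, so no difference between FLCs and ALCs is given for any gene. From the means alone, 2 genes with neighbouring levels cannot be ordered beyond error. To compare genes of unequal length, each mean was divided by the length of the gene's annotated exons and is given as normalized counts per kilobase (kb) of exon. This quantity is the level of a gene. In bulk RNA, fewer cells of a type and less RNA per cell cannot be told apart.

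Guidance cues were first known for steering growing axons, and the same proteins act in blood vessels, epithelia and the immune system. Semaphorins bind plexins, and most secreted class 3 semaphorins need a neuropilin as co-receptor. Slits bind Robo receptors, and netrins bind Dcc, Neo1 and the Unc5 receptors. Ephrins are bound to the membrane and act on Eph receptors of neighbouring cells, A ephrins through a lipid anchor and B ephrins through a transmembrane protein that can itself signal.

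The promoters are shown first because Nr5a1, the gene whose activity the sort used, encodes a nuclear receptor that binds single sites around AGGTCA. RefSeq windows on GRCm38.p6, running from 250 bases before the start to 50 bases after it, were found for 54 of the 63 genes, with 66 windows in all, and 9 genes had more than 1. The letters AAGGTCA, searched on both strands, stood in 4 of the 66 windows. Each is printed 5′ to 3′ on the strand of its gene, with the motif in capitals, up to 10 flanking bases to each side and the position of the match counted from the RefSeq start. The stretches lay at chr7:80186620-80186643 for Sema4b (position -243, plus strand), chr8:128358823-128358843 for Nrp1 (position -246, motif on the minus strand), chr15:32244663-32244689 for Sema5a (position -140, plus strand) and chr7:45683993-45684019 for Ntn5 (position -19, motif on the minus strand). All 4 genes lie on the plus strand.
Sema4b: acatgccAAGGTCAgagagggtgc
Nrp1: ctagTGACCTTcttcccgcgg
Sema5a: ggggcctgggAAGGTCAggggtgggtg
Ntn5: tgaaagcaacTGACCTTaacaccgagt

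The share of windows with AAGGTCA was 6.06% (exact Clopper-Pearson 95% interval 1.68% to 14.8%), against 3.55% of 10199 windows of all rows of the table and 4.72% of all 32851 windows of the same length. Both shares lie inside the interval of the guidance genes. The interval takes the 66 windows as independent, which they are not, since some genes have several windows and some windows overlap. The shorter AGGTCA, which every AAGGTCA contains, was in 15.2% of the windows, against 13.5% and 16.3%. The longer TCAAGGTCA, which contains both, was in 0 of 66 windows, with an exact upper bound of 5.44%. A match is a description of the letters in the window. Binding was not measured. The 4 genes with a match ranged from a level of 556 for Sema4b, a transmembrane semaphorin, through 156 for Nrp1 and 88.4 for Sema5a, to 2.47 for Ntn5, a little-studied netrin.

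CpG content also varied between the genes. It is shown on 3 genes, the 250 bases before the RefSeq start being printed on the gene's own strand with each CG in capitals. Efnb1, with the highest level of all 63 genes, had 13 CG in this stretch (chrX:99135811-99136060, plus strand). Neo1, with the highest level of the 3 netrin receptors listed, had 45 (chr9:59036442-59036691, minus strand). Ntn5, the lowest member of the netrin group, had 2 (chr7:45683772-45684021, plus strand).
Efnb1: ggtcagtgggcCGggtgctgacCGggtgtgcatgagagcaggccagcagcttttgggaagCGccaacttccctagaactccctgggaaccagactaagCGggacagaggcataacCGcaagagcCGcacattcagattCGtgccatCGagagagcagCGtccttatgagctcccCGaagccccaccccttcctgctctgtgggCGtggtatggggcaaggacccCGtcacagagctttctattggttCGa
Neo1: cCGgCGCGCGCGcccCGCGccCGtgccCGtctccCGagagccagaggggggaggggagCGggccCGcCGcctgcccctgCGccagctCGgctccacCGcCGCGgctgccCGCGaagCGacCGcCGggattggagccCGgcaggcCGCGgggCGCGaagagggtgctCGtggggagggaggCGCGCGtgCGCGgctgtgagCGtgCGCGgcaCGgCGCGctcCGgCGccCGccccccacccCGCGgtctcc
Ntn5: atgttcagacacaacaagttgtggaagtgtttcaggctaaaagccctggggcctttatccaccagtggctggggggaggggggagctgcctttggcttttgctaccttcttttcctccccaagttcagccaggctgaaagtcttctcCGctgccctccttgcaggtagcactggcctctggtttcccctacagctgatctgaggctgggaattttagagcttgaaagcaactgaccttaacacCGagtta

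Over the whole windows, the ratio of observed to expected CpG had a median of 0.656 in the guidance genes, 0.693 in the windows of all rows and 0.384 in all windows. A ratio of at least 0.6 was found in 54.5%, 59.6% and 35.8% of them. Among guidance genes with a level above the median of the table, 12 of 18 windows reached 0.6, and among those below it 24 of 48 did. This difference was not tested, since windows of 1 gene share its level and the 66 windows are not independent. The window of Efnb1 had a ratio of 0.527, and Efna5 had the highest ratio, 1.1, at a level of 23.9.

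**Figure D1:**
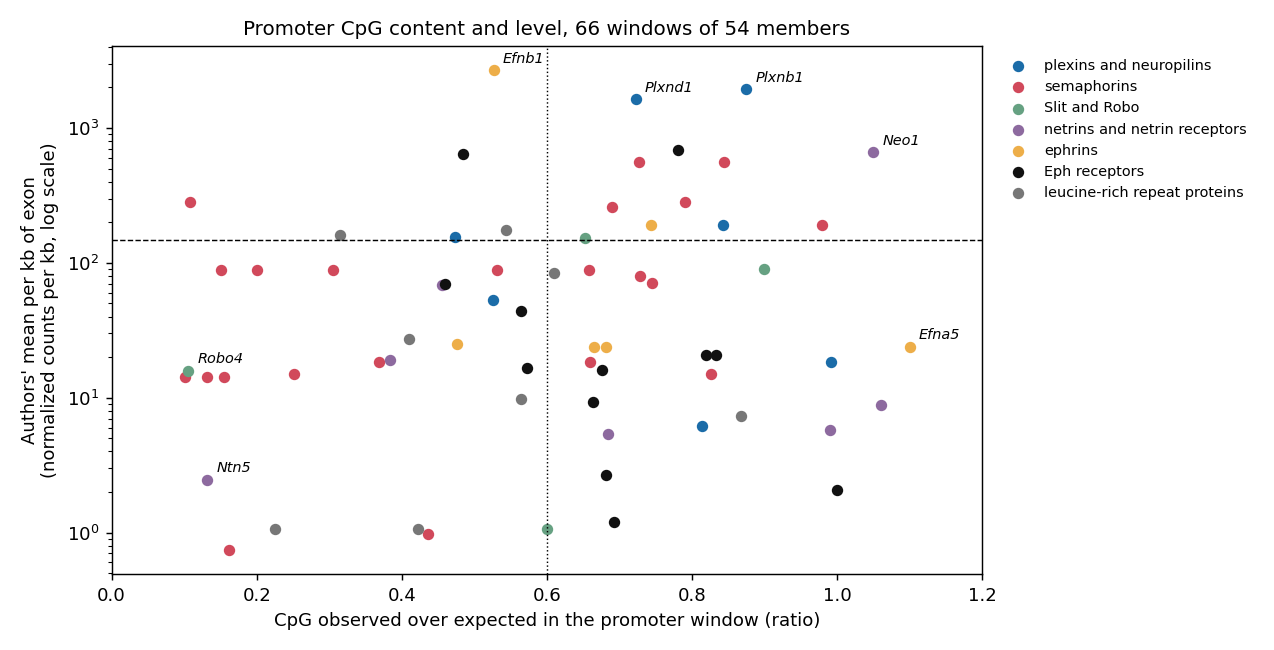
Ratio of observed to expected CpG in each of 66 promoter windows (x axis) against the level of its gene in normalized counts per kb of exon (y axis, log scale), coloured by family. The dashed line is the median level of the table, 147, and the dotted line a ratio of 0.6. Efnb1 has the highest level at a ratio of 0.527, and Ntn5 lies at the lower left with 0.132.

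All listed genes differed between the stages, so each rank here holds within that set and not among all expressed genes. Within the set, the guidance genes were mostly of low level, with a few abundant receptors and ligands. Their median level was 23.9, the 21.4th percentile of the 10506 rows with a length, and 18 of the 63 lay above the median of those rows, 147. Before division by length, 5 of the 63 (7.94%) had an authors' mean below 10 normalized counts, 21 (33.3%) from 10 to 100, 20 (31.7%) from 100 to 1000 and 17 (27%) of 1000 or more. For all rows these shares were 4.61%, 18.4%, 35.7% and 41.3%. The summed means of the guidance genes, 88961 normalized counts, were 0.4% of the sum over the table. Efnb1, Plxnb1, Plxnd1 and Plxna1 together held 56% of the summed level of the 63 genes, and the 8 highest, which add Ephb6, Neo1, Ephb4 and Sema4b, held 75.3%. Of these 8 genes, 6 encode receptors and 2 encode ligands. Over all members the order was the other way, with a median level of 68.9 for 25 ligands and 32.2 for 26 receptors, while 7 of the ligands and 9 of the receptors lay above the median of the table.

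**Figure D2:**
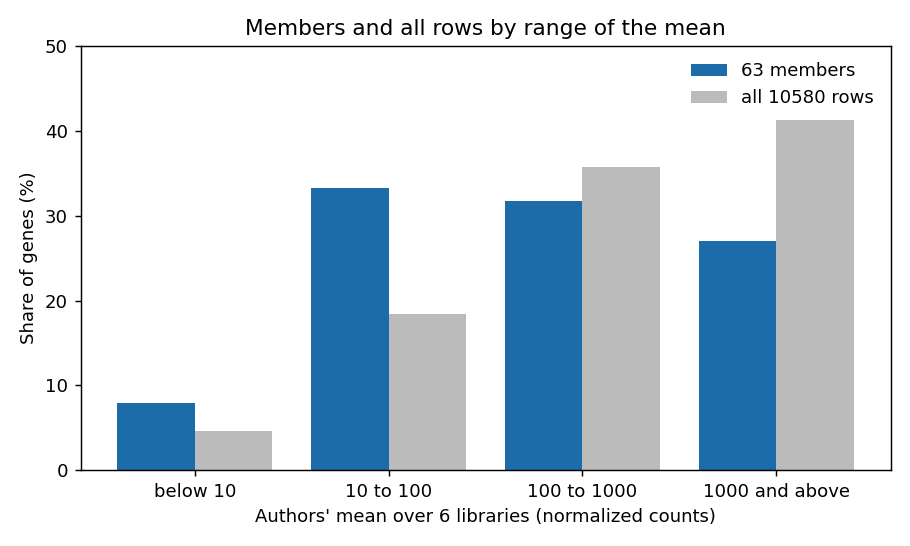
Share of genes in percent (y axis) in 4 ranges of the authors' mean over 6 libraries in normalized counts (x axis), for the 63 guidance genes (blue bars) and all 10580 rows (grey bars). The guidance genes hold a larger share than all rows in both ranges below 100 (33.3% against 18.4% from 10 to 100) and a smaller one at 1000 and above (27% against 41.3%).

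Among the receptors of semaphorins, 3 plexins stood out. Plxnb1, a receptor of class 4 semaphorins, had a mean of 18677 normalized counts and a level of 1947. Plxnd1, known from the patterning of blood vessels, had a mean of 11950 and a level of 1637, and Plxna1, a partner of neuropilins in class 3 semaphorin signalling, had 10305 and 1138. These levels were at the 95.2nd, 94.1st and 90.8th percentile of the table. Per kb of coding sequence the 3 genes were at the 87.6th, 82.6th and 80.3rd percentile. The other 6 members of the group lay well below these. Plxnc1, the receptor of Sema7a, had a level of 190 and Nrp1 a level of 156. Plxna4 had 122, Plxna3 52.9 and Nrp2 18.4, and Plxna2 was lowest with 6.14. Within the A plexins, Plxna1 was thus 185-fold above Plxna2 per kb of exon and 97.8-fold above it per kb of coding sequence. Nrp1 was 8.5-fold above Nrp2. With 5 of 9 members above the median of the table and a median level of 156, the plexins and neuropilins were the highest of the 7 families.

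The semaphorins, the ligands of this system, had a median level of 75.5 and 5 of 16 members above the median of the table. Sema4b led with a mean of 3139 and a level of 556. Sema3b, a secreted semaphorin, followed with 1412 and 296, and the transmembrane Sema6c with 1670 and 281. Sema7a, which is anchored to the membrane by a lipid and also binds integrins, had a level of 261, and the secreted Sema3c had 191. The class 3 semaphorins spanned almost the whole range of the family. Sema3f had a level of 5.36 and Sema3d 0.979. Sema3a, the classical repellent that signals through Nrp1, was the lowest of all 63 genes per kb of exon, with 0.739 and a mean of 10.2. The lowest place depended on the length used. Without division by length it went to Ntn5 (mean 5.47), and per kb of coding sequence to Robo3 (1.74, against 4.43 for Sema3a). Sema3b was 400-fold above Sema3a per kb of exon and 142-fold per kb of coding sequence, so the size of this gap depends on the length too. Between these ends lay Sema4a (88.8), Sema5a (88.4), Sema5b (80), Sema4g (71), Sema6d (18.3), Sema6b (14.9), Sema4d (14.3) and Sema6a (7.35). Sema4d is the best known ligand of Plxnb1, and its level was 136-fold below that of the receptor per kb of exon and 68.9-fold per kb of coding sequence. Sema7a and its receptor Plxnc1 had pooled levels of 261 and 190, which does not say how they compare at either stage.

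**Figure D3:**
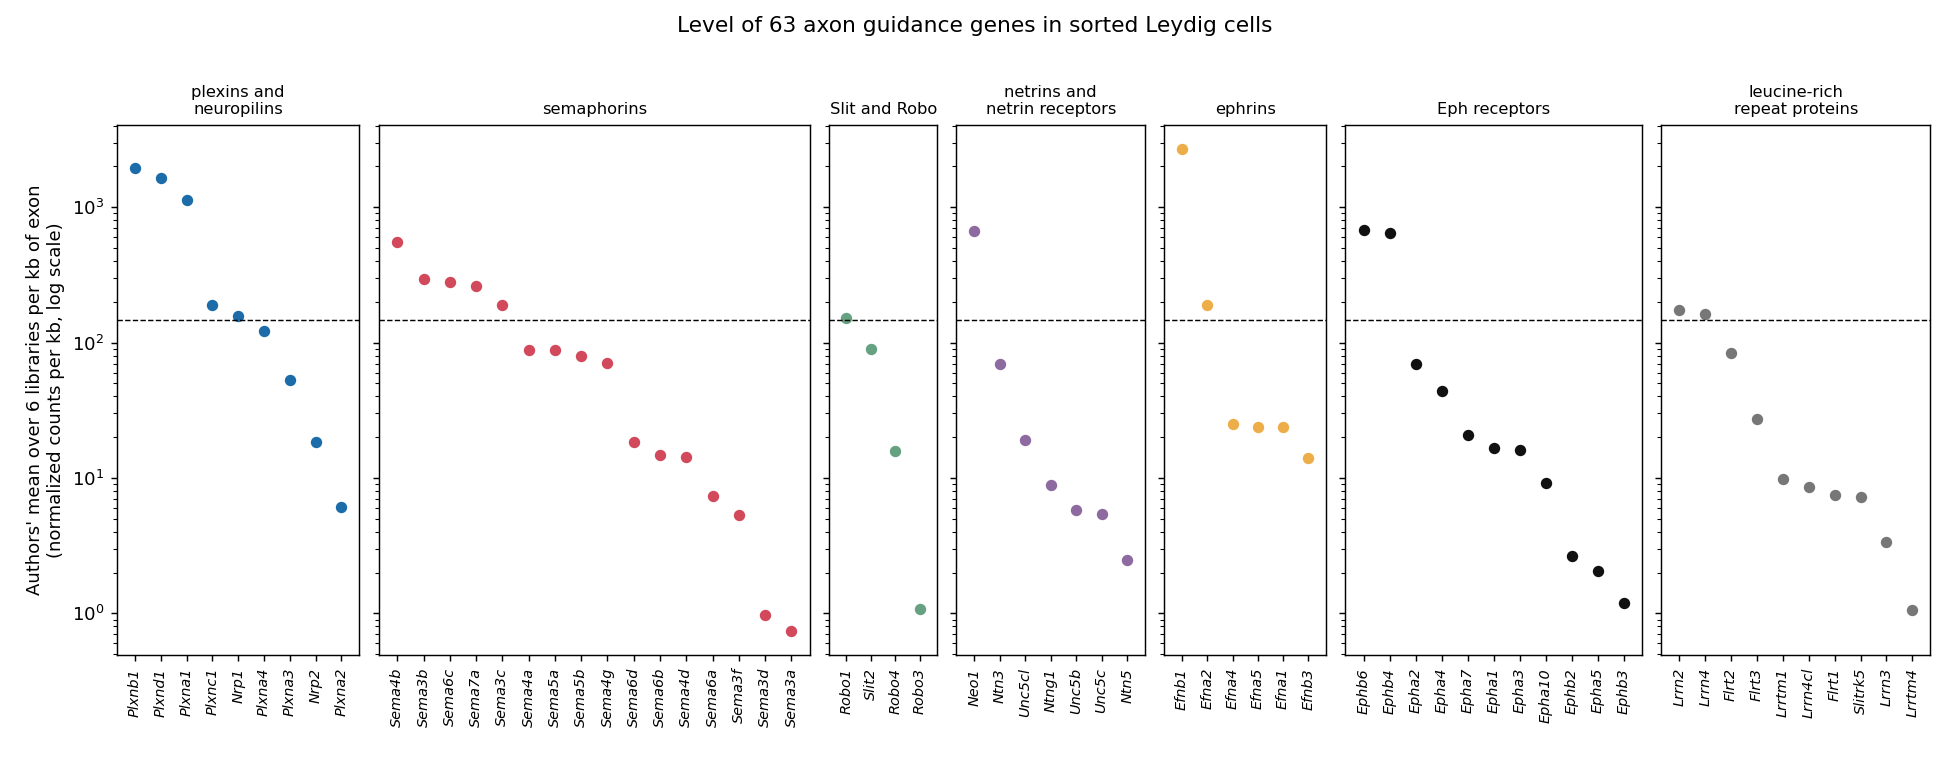
Level of each of the 63 genes (points, authors' mean over 6 libraries in normalized counts per kb of exon, log scale) within 7 families, in falling order. The dashed line is the median level of the table, 147. Single genes lead the ephrins (Efnb1, 2696) and the netrins and netrin receptors (Neo1, 667), and 3 plexins lie above 1000.

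The ephrin system was led by its B class. Efnb1, a transmembrane ephrin encoded on the X chromosome, had a mean of 9305 and a level of 2696, at the 96.9th percentile of the table, and held 90.7% of the summed level of the 6 ephrins. It was 14.2-fold above Efna2, the next ephrin with 190, and 191-fold above Efnb3, the lowest with 14.1. Efna4, Efna5 and Efna1 lay between, with levels of 25.2, 23.9 and 23.6. Of the Eph receptors, Ephb6, a member whose kinase domain is inactive, had a mean of 2578 and a level of 683, and Ephb4, known as the receptor of Efnb2 on veins, had 2995 and 646. Efnb2 itself was not analysed here. The other 9 Eph receptors were below the median of the table. They began with Epha2 (69.4), Epha4 (43.6) and Epha7 (20.9), continued with Epha1 (16.7), Epha3 (16.1) and Epha10 (9.23), and ended with Ephb2 (2.65), Epha5 (2.06) and Ephb3 (1.2). The EphB receptors were therefore split into a pair at high level and a pair near the bottom, with Ephb6 258-fold above Ephb2 per kb of exon and 75.1-fold per kb of coding sequence. All 7 EphA receptors lay between 2.06 and 69.4.

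Of the netrin system, Neo1, a receptor of netrins and of repulsive guidance molecules, had a mean of 5815 and a level of 667, and held 85.8% of the summed level of its group. Ntn3, a secreted netrin, had a mean of 352 and a level of 68.9. Unc5cl came next with 19.1, Ntng1, a membrane-anchored netrin G, had 8.85, and the repulsive netrin receptors Unc5b and Unc5c had 5.75 and 5.41. Ntn5 had a mean of 5.47 and a level of 2.47. In the Slit system, Robo1 had a mean of 2508 and a level of 152, close to the median of the table. Slit2, the only Slit in the table, had 2276 and 89.5. Robo4, best known from endothelial cells, had a level of 15.9 and Robo3, known from commissural axons, 1.07. Robo1 was 1.7-fold above Slit2 per kb of exon but 1.05-fold per kb of coding sequence, so the size of this difference rests on the length used.

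The leucine-rich repeat proteins, many of which organise synapses, were low, and 2 of them lay just above the median of the table per kb of exon. Lrrn2 had a mean of 628 and a level of 175, and Lrrn4 had 600 and 162. Both were below the median without division by length (48.6th and 47.6th percentile). The same held per kb of coding sequence (41.7th and 40.8th) and of the longest transcript (47.9th and 45.6th). Flrt2 and Flrt3, which bind latrophilins and Unc5 receptors, had levels of 84.3 and 27.1, and Flrt1 had 7.42. Flrt2 was 14.7-fold above Unc5b per kb of exon and 25.9-fold per kb of coding sequence. The synaptic organisers Lrrtm1, Slitrk5 and Lrrtm4 had 9.74, 7.26 and 1.06, Lrrn4cl had 8.52 and Lrrn3 had 3.36.

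Ligands and receptors were balanced differently in the 4 systems when levels were summed. Receptors exceeded ligands 2.67-fold in the semaphorin system (9 receptors with 5268, 16 ligands with 1975), with ratios of 1.7 per kb of coding sequence and 3.8 without division by length. In the netrin system the ratio was 9.5 (3 receptors with 678, 2 ligands with 71.4), and 6.53 and 16.7 by the other measures. In the Slit system it was 1.89, and 1.1 and 1.14. In the ephrin system ligands were higher, with 2972 against 1511 for the receptors, a ratio of receptors to ligands of 0.508, and 0.228 and 0.685. The B class carried nearly all of this, with 2710 for its 2 ephrins against 1333 for its 4 receptors, a ratio of 0.492, and 0.206 and 0.601. The A class had 262 against 178, and its ratio turned from 0.678 to 2.04 when means were not divided by length. The sums have no error, and they cover the listed genes alone.

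**Figure D4:**
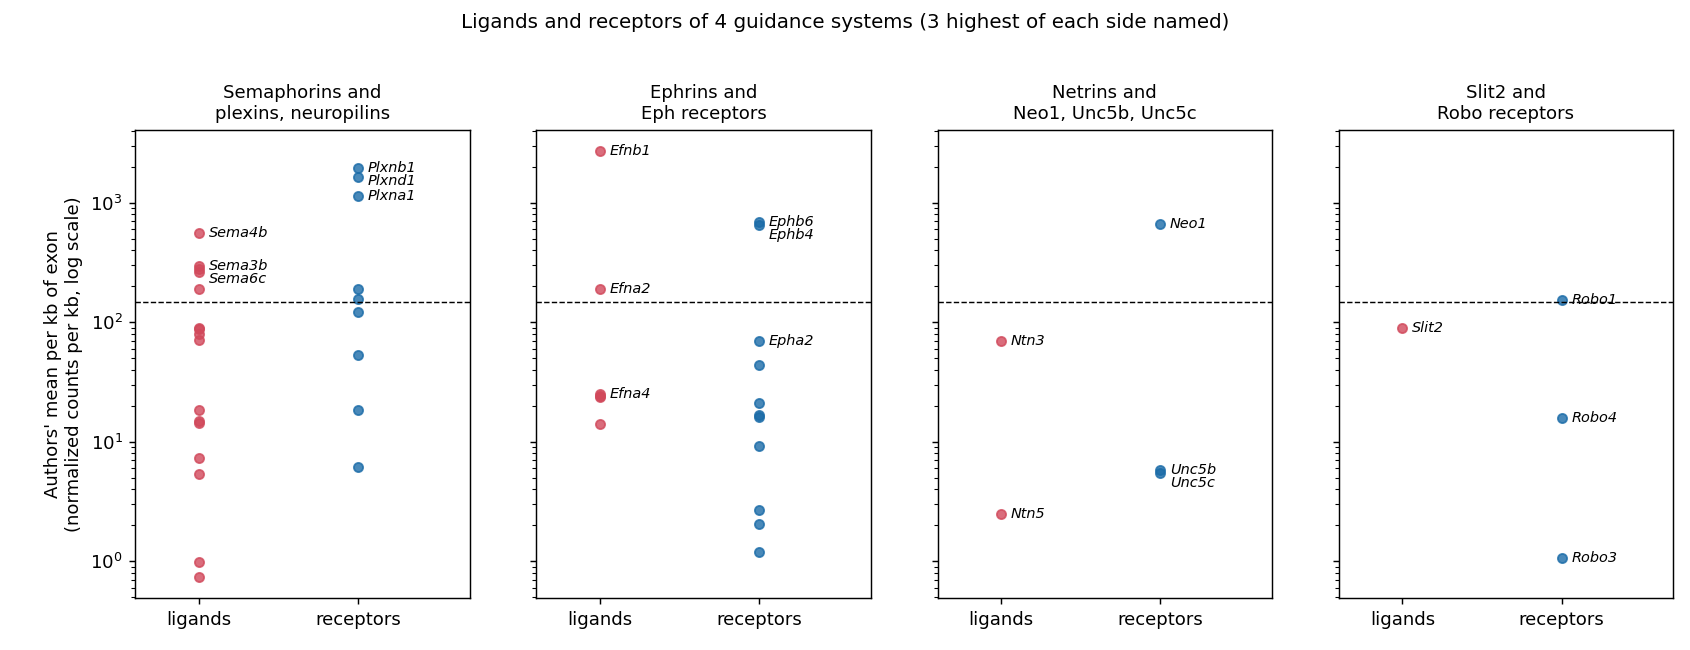
Level of each ligand (red) and receptor (blue) in 4 guidance systems (points, normalized counts per kb of exon, log scale), with up to 3 of the highest on each side named. The dashed line is the median level of the table, 147. In the ephrin system the highest point is a ligand, Efnb1 at 2696, and in the other 3 it is a receptor.

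The order of the 7 families depended on the length used. By median level it ran from plexins and neuropilins (156) through semaphorins (75.5), Slit and Robo (52.7), ephrins (24.6), Eph receptors (16.7) and leucine-rich repeat proteins (9.13) to the netrins and netrin receptors (8.85). Without division by length, 1 of the 7 families, the plexins and neuropilins, kept its place. Of the 10 highest genes per kb of exon, 8 were among the 10 highest without division, and Plxnb1 then took the first place from Efnb1. Per kb of coding sequence or of the longest transcript, 9 of the 10 were shared and Efnb1 stayed first.

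Guidance genes were long. Their median span on the genome was 39.7 kb, against 24.6 kb for the 10441 protein-coding rows, and 25 of 63 (39.7%) spanned more than 100 kb, against 14.7% of those rows. Exon length had a median of 6641 bases against 4280. Lrrtm4 (791 kb, chr6:80018877-80810143) and Robo1 (738 kb, chr16:72308306-73046095) had the longest spans, and Lrrn4cl (3.14 kb) and Efna4 (4.64 kb) were among the shortest. The ephrins were compact, with a median span of 9.97 kb. Efnb1 itself spans 12.9 kb (chrX:99136130-99148991, GRCm38), Plxnb1 24.5 kb (chr9:109095389-109119917) and Plxnd1 40.2 kb (chr6:115954811-115995005).

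In 3 places 2 of the genes lay within 500 kb of each other. Robo4 and Robo3 face each other on chromosome 9 (chr9:37401897-37415115, plus strand, and chr9:37415669-37433246, minus strand) with 553 bases between their ends, and had levels of 15.9 and 1.07. Sema3b and Sema3f lie 72.3 kb apart on the minus strand of the same chromosome, with levels of 296 and 5.36. Efna1 and Efna4 lie 52.2 kb apart on chromosome 3, with levels of 23.6 and 25.2. The pair on chromosome 3 thus had like levels, and in both pairs on chromosome 9 the levels were far apart. Chromosomes 6 and 9 held 7 of the genes each.

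Some of these levels may rest on exons that other genes share. Overlaps were taken from GENCODE vM21, not from the earlier release that the study names for its counts. Whether counting used the strand is not given in the sources used here, and without it reads of overlapping genes on opposite strands cannot be told apart. Exons of 11 of the 63 genes overlapped a gene on the opposite strand and those of 4 a gene on the same strand. The overlap reached 10% of the exon length in 4 genes, all on the opposite strand: Lrrtm4 (25.1%), Ntn5 (23.4%, with Sec1), Plxna1 (10.7%) and Efna4 (10.5%). For Ntn5, Sec1 had a mean of 18.2 against its own 5.47, so its level is uncertain. Epha1 shares 236 exonic bases (6.01%) with Zyx on the opposite strand. Zyx had a mean of 2049 against 65.4 for Epha1, so the level of Epha1 is uncertain too. Ntn3 shares 89 exonic bases (1.74%) with Tbc1d24 on the same strand, where strand cannot separate the reads. Tbc1d24 had a mean of 1542 against 352 for Ntn3. The level of Ntn3 is therefore also uncertain, and with it the ligand sum of the netrin system.

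Genes that work with these cues but do not match the names were taken from a list of co-receptors and intracellular effectors. Of its 65 genes, 43 were in the table, with a median level of 145 against 23.9 for the guidance genes, and 21 lay above the median of the table. The count of 43 was not set against the share of all genes that are listed, which was not computed. Cdon, a hedgehog co-receptor that also associates with Neo1, had 3712, and Cfl1, the actin-severing cofilin, had 3005. Lphn1, a latrophilin that binds Flrt proteins, had 2255, Vegfa, a ligand of Nrp1, had 921, and Fyn, a kinase downstream of several guidance receptors, had 907. The guanine nucleotide exchange factors that bind B plexins, Arhgef11 and Arhgef12, had 579 and 485.

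Markers of Leydig cells were at the top of the table, all 6 of 6 with levels from 21275 (Star) to 414861 (Insl3). Of the other cell types, Sertoli cells had 2 of 3 markers listed (20.2 and 82.2, Sox9 not listed), interstitial progenitors 2 of 3 (92 and 267), germ cells 1 of 3 (61.1), endothelial cells 1 of 3 (35.7), immune cells 4 of 4 (5.61 to 170) and peritubular myoid cells 0 of 3. Of 6 neuronal and glial markers, Tubb3 alone was listed, with 325. Levels of most guidance genes lay in the range of these low markers, and the part that other cells of the sort had in them was not tested. A marker outside the table need not be low, since a gene is listed only where the stages differed, so the listed markers do not give the share of other cells.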

How the data were processed

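RNA of GFP-positive Leydig cells was sequenced by the authors in 6 libraries (3 FLCs, 3 ALCs). The kit given in the labels depletes ribosomal RNA from total RNA and keeps strand, while the study's results speak of poly(A)+ RNA. The authors' pipeline used Casava (1.8.2) for demultiplexing and GemTools for alignment to GRCm38, with gene counts from their own counting tool and a minimum of 10 reads a gene. The deposited signal used here is the authors' normalized count (scaled by size factors in DESeq2), averaged across the 6 libraries of both stages. The other columns of the table hold the authors' own comparison of ALCs with FLCs (log2 fold change, standard error, Wald statistic, p-value and adjusted p-value) and were not used. Every listed row has an adjusted p-value below 0.05 in that comparison, so a gene outside the table need not be low. Values per library were not used here, the depth of each library is unknown, no error could be given, and the planned count model was not run.

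Genes were matched to GENCODE vM21 by symbol (10206 rows) or older symbol (300 rows), and 74 rows had no match. Means were divided by the exon length of all transcripts of a gene combined, per kb. The study names an earlier GENCODE release for its counts, so some exons in these lengths may not have been counted. Genes named are the 3 highest and the lowest of each family, members within 500 kb of each other and known partners, and other members are given for completeness. Promoter windows came from RefSeq (GRCm38.p6). Intervals (95%) are Clopper-Pearson, take the windows as independent and cover counting error only. Python 3.11.15 and scipy 1.17.1 were used, and the scripts were tested on simulated data. Members, gene lists and alternatives were chosen with earlier results of these data known. Alternatives were other lengths, a minimum mean of 10 and other motifs.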

Additional observations from a re-analysis of the deposited data

How the results depend on the processing

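The number of guidance genes above the median of the table was 18 of 63 per kb of exon and 18 without division by length. It was 16 per kb of the longest coding sequence and 16 per kb of the longest transcript, both lengths chosen after seeing the data (the first in place of a planned protein length). Against the other rows with a mean of at least 10 it was 15, and with rows below 10 left out it was 15 of 58. The share of promoter windows with AAGGTCA, 6.06%, did not move when only the bases before the start were searched, was 0% for TCAAGGTCA and 15.2% for AGGTCA. The median percentile of the plexins and neuropilins moved from 51.2 to 70.1 without division by length and to 44.4 per kb of coding sequence, and that of Slit and Robo from 28.6 to 50.1 and 32.7. No paired analysis was possible because the values used are means over all libraries. For the same reason the planned fits of FLCs against ALCs, with a library left out in turn, with DESeq2 or without a filter, were not run. The depth of each library is unknown, and 5 of the genes had means below 10 normalized counts.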
